A study of Mus musculus with 4 samples.

Results

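Mitochondrial ribosomal proteins are the nuclear-coded protein part of the ribosome that works inside mitochondria. The set was taken by name: every gene with a non-control probe whose array gene name begins with Mrpl (large subunit) or Mrps (small subunit) followed by a number. This gave 78 genes, 49 of the large and 29 of the small subunit, of 24146 named genes on the array. The rule used names and no measured value, but the set was chosen with earlier results of these data known. They had 122 probes, and each gene was represented by its brightest probe by the mean over the arrays.

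Expression was measured in RAW264 cells, a macrophage-like line from a BALB/c mouse. The 4 groups were siGFP, siGFP with iron, siTfe3/Tfeb and siTfe3/Tfeb with iron, with 1 array of 1 culture each. All cultures received small interfering RNA (siRNA), directed in the controls at green fluorescent protein, a jellyfish protein, and in the others at Tfe3 and Tfeb, related transcription factors of lysosome and autophagy genes. Iron was 500 µM ferric chloride for 24 h, begun 48 h after transfection, and 50 ng of RNA per array was labelled with Cy3.

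The mitochondrial genome encodes a few subunits of the respiratory chain and the RNA of the mitochondrial ribosome, while all of that ribosome's proteins are made in the cytosol and imported. The large subunit forms peptide bonds and the small subunit reads the messenger RNA. Many of these proteins descend from bacterial ribosomal proteins and others are found in mitochondria only. In macrophages as in other cells, the products of this ribosome join nuclear-coded subunits, several of which hold iron, in the respiratory chain.

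Signals were expressed as multiples of the 75th percentile of the array's non-control spots, which was 593 to 636 intensity units on the 4 arrays, and differences as log2 differences of these multiples. Of the named genes, 13942 to 14501 were well above background on an array and 13482 on all 4. There was 1 array a group, and no difference between conditions was tested. The error given is the spot SD, the SD of a log2 difference that the spread of repeated spots of 1 probe gives: 0.062 for bright probes, 0.11 for moderate ones and 0.26 for dim ones. It leaves out variation between cultures. A 1.2-fold difference (log2 0.26) was used to count genes. Tfe3 stood at 60.6% of its siGFP level without iron and 68.4% with iron, and Tfeb at 91.0% and 112%, so the Tfeb signal went against the label with iron, and siTfe3/Tfeb below names the arrays by their label. Of 12 macrophage markers, 11 were well above background on all 4 arrays (Mrc1 on 3), against 1 of 8 fibroblast, 1 of 6 epithelial, 3 of 6 lymphocyte and 1 of 5 endothelial markers.

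Each of the 78 mitochondrial ribosomal protein genes was well above background on every array, and none had a saturated or outlier spot. The differences between arrays were small: none of the 78 reached 2-fold in any comparison. Of all genes 1.38% were 2-fold higher and 0.274% lower with iron in siGFP cells, and 1.62% and 0.466% in siTfe3/Tfeb cells. With siTfe3/Tfeb 1.4% were 2-fold higher and 1.85% lower without iron, and 0.833% and 1.34% with iron. Iron left the set near 0 in both siRNA backgrounds. The arrays labelled siTfe3/Tfeb were lower than their siGFP counterparts for most of the set, by a median log2 difference of -0.11 without iron and -0.13 with iron. Over all genes these medians were -0.03 and -0.02.

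**Figure D1:**
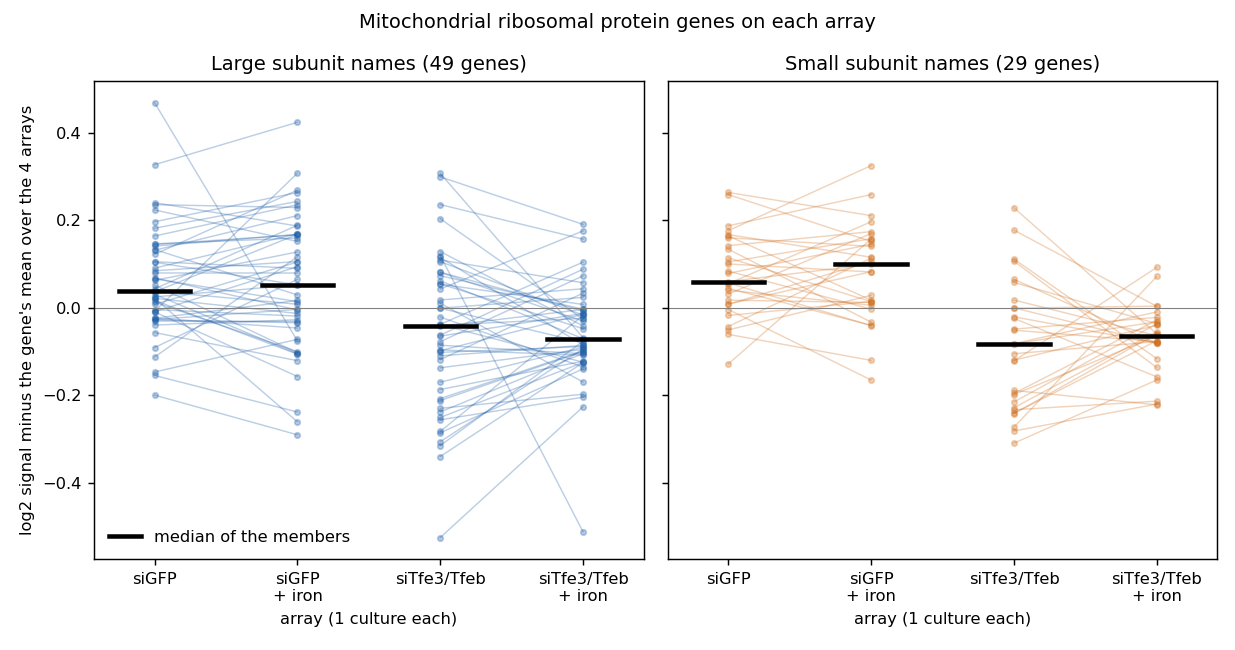
Log2 signal of each member on each of the 4 arrays (horizontal axis) minus its own mean over the arrays, with large subunit names (49 genes) on the left and small subunit names (29 genes) on the right; each point is 1 gene on 1 array, thin lines join the arrays without and with iron of 1 siRNA, and black bars are medians. The bars of both siTfe3/Tfeb arrays lie below 0 and those of both siGFP arrays above it, in both subunits.

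Measured from each gene's own mean over the 4 arrays, the members had a median of 0.054 on the siGFP array and 0.081 on its iron counterpart, and of -0.063 on the siTfe3/Tfeb array and -0.066 on its iron counterpart. Both siTfe3/Tfeb arrays were thus below both siGFP arrays in the median. Gene by gene, 43 of 78 members (55.1%) had both siTfe3/Tfeb arrays below both siGFP arrays, against 30.2% of all genes well above background. The reverse held for 10 of 78 (12.8%), against 24.1% of all genes. In the large subunit these counts were 27 and 9 of 49, and in the small subunit 16 and 1 of 29.

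The question of the siRNA comparison is which genes depend on Tfe3 and Tfeb. Without iron, 50 of 78 members were lower in siTfe3/Tfeb than in siGFP, against 53.6% of all genes. Of the members, 25 were at least 1.2-fold lower (32.1%, against 24.5% of all genes) and 3 at least 1.2-fold higher (3.85%, against 20.6%). With iron, 60 of 78 were lower, against 52.8% of all genes. Here 19 were at least 1.2-fold lower (24.4%, against 21.3%) and 2 at least 1.2-fold higher (2.56%, against 17.4%). The share of members 1.2-fold lower with iron was thus near the background, and the members differed from it more clearly in how few were higher. Such a low share was not particular to them. Of 77 cytosolic ribosomal protein genes 1.3% were higher and 0% lower, both without and with iron. Of 79 nuclear-coded genes of the respiratory chain and ATP synthase 10.1% and 8.86% were higher, and 7.59% and 0% lower. The members' count below 0 with iron was 41 of 78 when arrays were centred on their median, a scaling that moved the median of all genes to 0.07.

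The 2 pairs of arrays of this comparison share no array, and they ordered the members alike. Of 78 members, 50 were lower in both pairs, 18 higher in both and 10 of opposite sign, where 42% and 35.9% of all genes were lower and higher in both. There were 17 members at least 1.2-fold lower in both (21.8%, against 15.3% of all genes) and 2 at least 1.2-fold higher in both (2.56%, against 11.8%). Across the 78 genes the differences of the pairs had a Pearson r of 0.91 and a Spearman rho of 0.90, and r was 0.78 across all genes. Genes are not independent replicates, and 4 cultures on 1 slide stand behind all of these points.

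**Figure D2:**
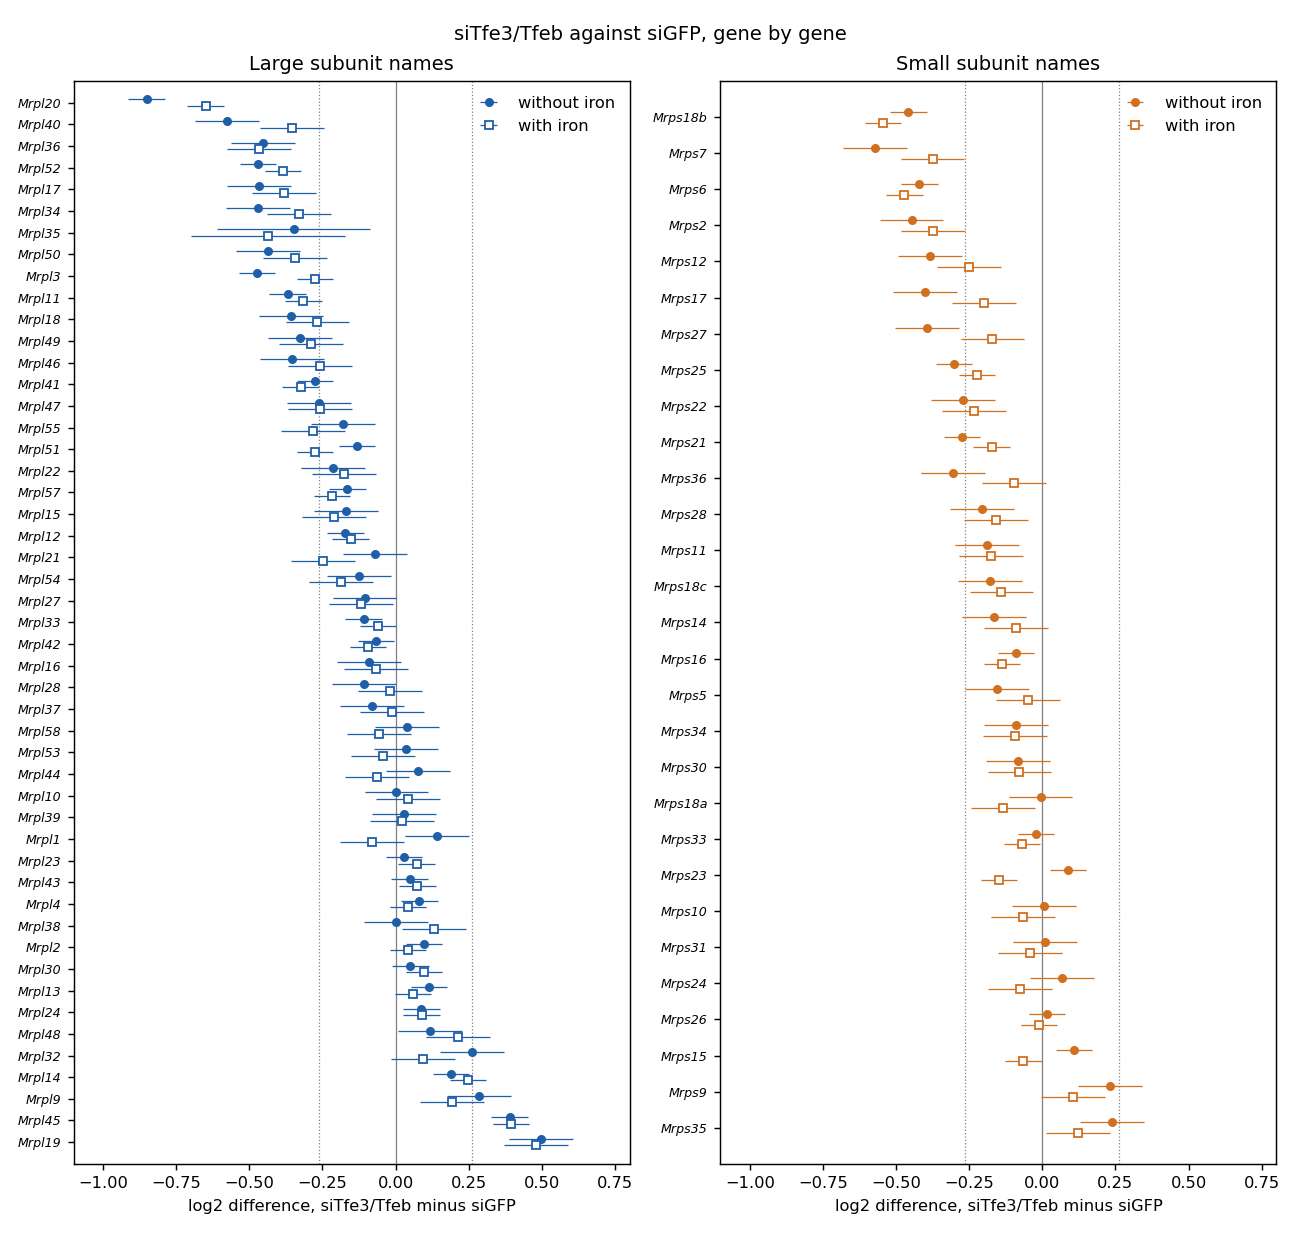
Log2 difference, siTfe3/Tfeb minus siGFP (horizontal axis), of each member (rows), ordered by the mean of both differences, with filled circles for the arrays without iron and open squares for those with iron; bars are the spot SD and dotted lines mark 1.2-fold. Mrpl20 lies lowest in the large subunit (-0.85 and -0.65), and Mrpl19 and Mrpl45 lie highest, past 1.2-fold with and without iron.

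Among large subunit proteins with a bacterial counterpart, Mrpl20, whose bacterial relative binds the ribosomal RNA early in assembly, was the lowest of all members. Its only probe (mm9 chromosome 4, 155182878 to 155182937, plus strand) read 37.5 times the 75th percentile in siGFP and 40.1 with iron added, against 20.8 in siTfe3/Tfeb and 25.6 with iron added. Both siTfe3/Tfeb arrays were far below both siGFP arrays: they held 55.4% (no iron) and 63.8% (iron) of the control signal, which is -0.85 and -0.65 in log2 (spot SD 0.062). Mrpl36, the counterpart of the smallest protein of the bacterial large subunit, read 15.5 in siGFP and 16.2 with iron, and 11.3 in siTfe3/Tfeb and 11.7 with iron, differences of -0.45 and -0.47 (spot SD 0.11). Its siGFP and siTfe3/Tfeb arrays did not overlap. Mrpl3, whose relatives reach towards the site of peptide bond formation, read 20.8, 19.8, 15.01 and 16.4 on the same arrays in the same order, and its differences were -0.47 and -0.28. Mrpl17 (-0.47 and -0.38) and Mrpl34 (-0.47 and -0.33) were lower by similar amounts. Mrpl35 was the dimmest member and read -0.35 and -0.44, with a spot SD of 0.26.

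On the other side of this group stood Mrpl19, a protein of the face that meets the small subunit. It read 3.45 in siGFP and 3.24 with iron, and 4.87 in siTfe3/Tfeb and 4.52 with iron, differences of 0.50 and 0.48 (spot SD 0.11), so both siTfe3/Tfeb arrays were above both siGFP arrays. Mrpl9, whose bacterial relative sits at the base of the stalk formed by protein L1, was higher at 0.29 and 0.19. Mrpl32, a protein matured by a mitochondrial protease before it joins the ribosome, differed by 0.26 and 0.09, and Mrpl14, also at the subunit interface, by 0.19 and 0.25. Over the 29 members of this group, 17 were below 0 without iron and 18 with iron, with medians of -0.11 and -0.08.

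At the stalk of the large subunit, which recruits translation factors, Mrpl11 was at -0.37 and -0.31, and Mrpl12, the protein that contacts those factors, at -0.17 and -0.15. Mrpl10, the anchor of Mrpl12, was at 0.0033 and 0.04, and the other Mrpl10 probe read -0.18 and 0.01 (spot SD 0.11).

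Large subunit proteins found in mitochondria only, 19 genes, had medians of -0.08 without iron and -0.09 with iron, with 11 and 14 of them below 0. Mrpl40 was the lowest without iron: it read 9.96 in siGFP and 9.92 with iron, and 6.69 in siTfe3/Tfeb and 7.76 with iron, differences of -0.57 and -0.35 (spot SD 0.11). Mrpl52 read 48.1, 46.3, 34.7 and 35.5 in that order, differences of -0.47 and -0.38 (spot SD 0.062). In both genes the siTfe3/Tfeb arrays were the lower ones. Mrpl45, the protein through which the ribosome is tethered to the inner membrane where its products are inserted, went the other way: it read 15.5 in siGFP and 14.6 with iron, and 20.3 in siTfe3/Tfeb and 19.2 with iron, differences of 0.39 and 0.39. Mrpl48 was at 0.12 and 0.21, and a second bright probe gave 0.17 and 0.21. Mrpl44, which has the fold of a ribonuclease, read 0.08 and -0.06 by its brightest probe, but 0.20 and 0.27 by a dimmer one, past 1.2-fold with iron.

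In the small subunit the members were more uniformly lower with iron: 27 of 29 were below 0, against 33 of 49 in the large subunit. Without iron it was 21 of 29 against 29 of 49. Centred on the array median, the counts with iron were 17 of 29 and 24 of 49. The spread of the differences over genes (SD) was 0.15 in the small and 0.23 in the large subunit with iron, and 0.21 and 0.26 without. The median of large minus small was 0.06 without iron and 0.04 with iron, and the difference between subunits was not tested. Since Mrps18a and Mrps30 in fact sit in the large subunit and Mrps36 is part of a dehydrogenase complex of the citric acid cycle, the count by place in the ribosome differs: 24 of 26 small and 35 of 51 large subunit members were then below 0 with iron. Those misnamed genes read -0.0060 and -0.13 (Mrps18a), -0.08 and -0.08 (Mrps30), and -0.30 and -0.10 (Mrps36).

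The lowest small subunit members were the rRNA-binding protein Mrps7, and Mrps18b, Mrps2 and Mrps6. Mrps7 nucleates the head of the subunit in bacteria and read 14.4 in siGFP and 13.9 with iron, and 9.69 in siTfe3/Tfeb and 10.7 with iron, differences of -0.57 and -0.38 (spot SD 0.11). Its other probe gave -0.29 and -0.23. Mrps18b, 1 of 3 mitochondrial relatives of bacterial protein S18, read 19.4, 21.5, 14.1 and 14.7 in that order, differences of -0.46 and -0.54 (spot SD 0.062). Its other probes gave -0.54 and -0.55, and -0.34 and -0.26, so all 3 were lower on both siTfe3/Tfeb arrays. The relatives differed from it in size: Mrps18c was at -0.18 and -0.14, and Mrps18a is given above. Mrps6 was at -0.42 and -0.47 and Mrps2 at -0.45 and -0.37, with another Mrps2 probe at -0.56 and -0.45. Mrps12, at the decoding centre, was at -0.38 and -0.25. The highest small subunit members were Mrps35 (0.24 and 0.12) and Mrps9 (0.23 and 0.11), and neither reached 1.2-fold. The other Mrps9 probe (spot SD 0.11) lay nearer 0, at -0.07 and 0.01. Mrps26 (0.02 and -0.01) and Mrps31 (0.0084 and -0.04) lay near 0. Mrps23 had opposite signs in the 2 comparisons by its brightest probe (0.09 and -0.15), but its other probe (spot SD 0.11) was above 0 in both (0.23 and 0.08).

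For 30 members a second probe was well above background, which gives a check within the same arrays. Its sign was that of the brightest probe for 21 genes without iron and 20 with iron (Pearson r 0.52 and 0.54 across the 30 genes). Of the 8 such members past 1.2-fold without iron, 7 had a second probe of the same sign and 4 had one past 1.2-fold too. With iron this was 3 and 2 of 3. Dimmer probes went past 1.2-fold against the brightest in 8 genes over the 4 comparisons: Mrpl9, Mrpl24, Mrpl27, Mrpl38, Mrpl44, Mrps14, Mrps18a and Mrps36. For Mrpl9 that probe was dim (spot SD 0.26) and read -0.61 and -1.01, and the remaining probe read 0.25 and 0.11.

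The question of the iron comparison is what ferric chloride changed. In siGFP cells the members' median difference was -0.00059, beside -0.02 over all genes, and 40 of 78 members were below 0, against 53.8% of all genes. There were 2 members at least 1.2-fold higher (2.56%, against 13.4% of all genes) and 2 at least 1.2-fold lower (2.56%, against 12.9%). In siTfe3/Tfeb cells the median was 0.03, beside -0.0056 over all genes, and its sign turned with quantile normalization, to -0.01 alone and -0.02 after normexp background correction. Here 33 of 78 were below 0, against 50.8% of all genes. There were 3 at least 1.2-fold higher (3.85%, against 16.5%) and 3 at least 1.2-fold lower (3.85%, against 17.3%). The SD of the differences over members was 0.12 and 0.16, where it was 0.33 and 0.37 over all genes. The large and small subunit medians were -0.000087 and -0.0052 in siGFP cells and 0.02 and 0.03 in siTfe3/Tfeb cells, so neither subunit stood apart.

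**Figure D3:**
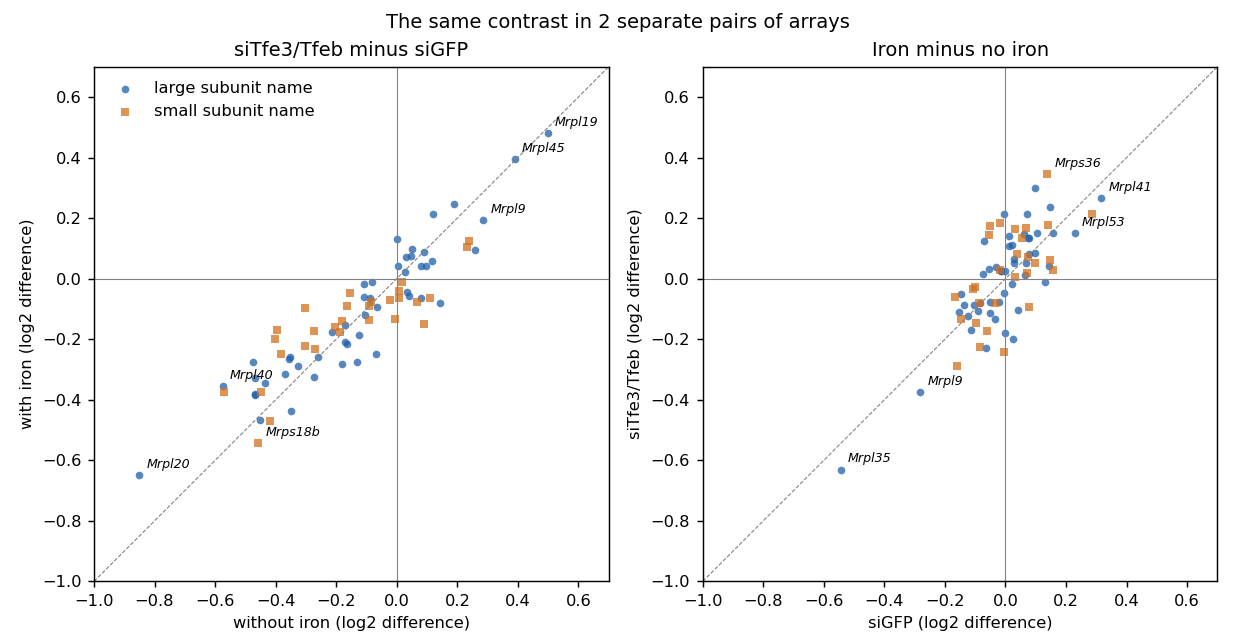
Log2 differences of the 78 members in separate pairs of arrays, siTfe3/Tfeb minus siGFP on the left (without iron against with iron) and iron minus no iron on the right (siGFP against siTfe3/Tfeb cells), with circles for large and squares for small subunit names and a dashed line of equality. On the left the points follow the line from Mrpl20 to Mrpl19 (Pearson r 0.91), and on the right most lie near 0, with Mrpl35 and Mrpl9 low in both pairs.

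The pairs of arrays with and without iron also share no array between siRNAs. Of 78 members, 28 were lower with iron in both, 33 higher in both and 17 of opposite sign, where 38.5% and 33.7% of all genes were lower and higher in both. Mrpl35 and Mrpl9 were at least 1.2-fold lower in both (2.56%, against 6.5% of all genes), and Mrpl41 at least 1.2-fold higher in both (1.28%, against 7.74%). Pearson r across the 78 genes was 0.75 and Spearman rho 0.67, and r was 0.68 across all genes.

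Mrpl35 gave the lowest iron differences, from 0.122 times the 75th percentile to 0.0839 in siGFP cells and from 0.0961 to 0.0620 in siTfe3/Tfeb cells. These are -0.54 and -0.63. With normexp background correction they were -0.27 and -0.20, about the size of the spot SD of 0.26, which was taken under the main scaling. Mrpl9 read 8.41 in siGFP and 6.92 with iron, and 10.2 in siTfe3/Tfeb and 7.90 with iron, so the array with iron was the lower one of each siRNA, by -0.28 and -0.38 (spot SD 0.11). A second Mrpl9 probe gave -0.37 and -0.51, and the dim one 0.01 and -0.39. Mrps9 (-0.16 and -0.29), Mrps24 (-0.08 and -0.23) and Mrpl32 (-0.06 and -0.23) followed. Mrpl48 (-0.15 and -0.05), Mrpl23 (-0.15 and -0.11), Mrps5 (-0.17 and -0.06), Mrps11 (-0.15 and -0.13) and Mrpl1 (0.02 and -0.20) were among the lower members in 1 of the pairs. For Mrps5 another probe (spot SD 0.11) was above 0 in both pairs, at 0.17 and 0.10.

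Mrpl41, which lies near the tunnel exit, read 16.6 in siGFP and 20.6 with iron, and 13.7 in siTfe3/Tfeb and 16.5 with iron, differences with iron of 0.32 and 0.26 (spot SD 0.062). Its siTfe3/Tfeb array with iron stood at the level of siGFP without iron. Mrps10, a protein of the head of the small subunit, was at 0.29 and 0.21, Mrpl53 at 0.23 and 0.15 and Mrpl50 at 0.15 and 0.24. Mrps36, the dehydrogenase component, was at 0.14 and 0.34, where a dim second probe (spot SD 0.26) read 0.54 and -0.39. Mrps22 (0.14 and 0.18), Mrps18b (0.15 and 0.06) and Mrpl39 (0.16 and 0.15) were above 0 in both pairs.

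The difference of the iron responses, siTfe3/Tfeb minus siGFP, had a median of 0.0053 over the members. No member reached 1.2-fold in either direction, where 12.6% of all genes did in each. Its SD over the members was 0.11. The spot SD of such a double difference was 0.15 for a moderate probe and 0.088 for a bright one, such as those of Mrpl20 and Mrps23. Mrps27, a protein with RNA-binding repeats (0.22), Mrpl40 (0.22), Mrps36 (0.21), Mrpl20 and Mrps17 (0.20 each) were the highest, and Mrps23 (-0.24), Mrpl1 (-0.22), Mrpl21 (-0.18), Mrps15 (-0.17) and Mrpl32 (-0.17) the lowest. The other Mrpl21 probe (spot SD 0.11) read -0.11 with iron in siGFP and -0.12 in siTfe3/Tfeb cells, nearly equal. Other probes of the same spot SD read -0.09 and -0.19 for Mrpl1, -0.09 and -0.25 for Mrps23 and -0.05 and 0.25 for Mrps17. The difference of iron responses is also the siTfe3/Tfeb difference with iron minus that without, so members picked as lowest without iron tend to stand high in it. Mrpl20 and Mrpl40 were the lowest members without iron, and Mrpl20 was the lowest with iron too (-0.65). No conclusion is drawn from their place here.

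Other genes of mitochondrial translation gave the following values. Of 7 mitochondrial ribosomal proteins under other names, 5 were on the array: Gadd45gip1 was at -0.42 and -0.28 (siTfe3/Tfeb without and with iron), Chchd1 at -0.33 and -0.13, Ptcd3 at -0.26 and -0.37 and Aurkaip1 at -0.04 and -0.09, while Dap3, a GTP-binding protein of the small subunit, was at 0.32 and 0.22. Of these 5, 4 were below 0 in both. Of 16 measured translation factors, 9 were below 0 in each comparison (medians -0.04 and -0.05), with Oxa1l, the inner membrane insertase that receives new chains, at 0.41 and 0.35. Of 26 assembly factors, 9 (34.6%) were at least 1.2-fold lower without iron and 7 (26.9%) with iron, against 24.5% and 21.3% of all genes, and 3 (11.5%) and 1 (3.85%) were higher, against 20.6% and 17.4%. Those lower included the RNA-binding Fastkd3 (-0.80 and -0.61) and Fastkd2 (-0.74 and -0.41) and the rRNA methyltransferase Mrm2 (-0.53 and -0.67). Of 20 aminoacyl-tRNA synthetases and related enzymes 5 were 1.2-fold lower and 3 higher without iron (median -0.09), and 4 and 3 with iron (median -0.06), so that the lower shares, 25% and 20%, were near those of all genes. Among them the tyrosine enzyme Yars2 was at -0.55 and -0.40. Of 21 genes of mitochondrial DNA transcription and RNA handling 3 and 3, and 2 and 0, passed 1.2-fold (medians -0.05 and -0.08), with Trmt10c, which processes mitochondrial tRNA, at -0.52 and -0.46. Of 14 regulators, 12 were measured without iron, with 4 higher and 2 lower by 1.2-fold, and 13 with iron, with 3 and 2 (medians -0.04 and -0.05). Pprc1, a coactivator of nuclear genes for mitochondria, was at -0.84 and -0.49. Myc led this list with iron, at -0.80 for siTfe3/Tfeb against siGFP. In siGFP cells Myc was higher with iron by 1.14, past 2-fold. Above 0 in both siRNA comparisons were the stress-response factors Atf5 (0.94 and 0.29) and Atf4 (0.45 and 0.37) and the general factor Sp1 (0.57 and 0.56).

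**Figure D4:**
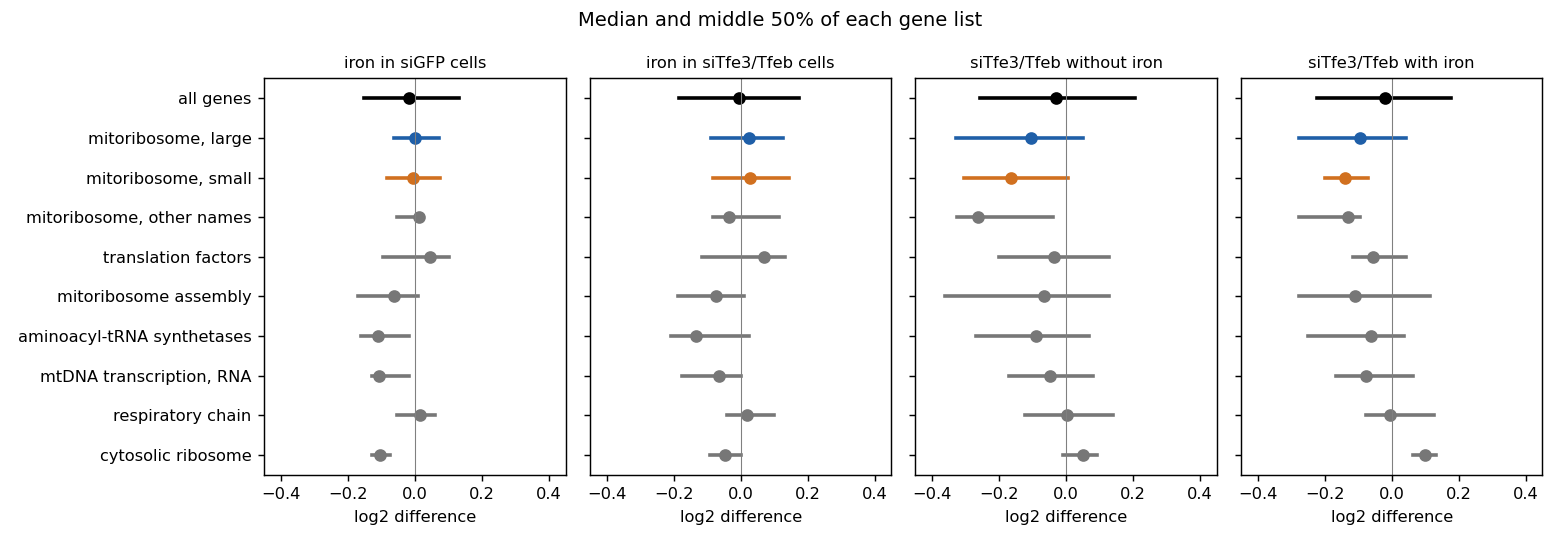
Median (point) and middle 50% of genes (bar) of the log2 difference in each of the 4 comparisons (panels), for all genes, both sets of mitochondrial ribosomal protein names and other lists. Both subunits lie left of 0 in the siTfe3/Tfeb panels (large and small, -0.11 and -0.17 without iron, -0.09 and -0.14 with iron, though large with iron was 0.0014 with median centring). Cytosolic ribosomal proteins lie right of it (0.05 without and 0.10 with iron, but -0.0036 to 0.19 with iron over the alternatives).

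Cytosolic ribosomal proteins, which make up the ribosome outside mitochondria, lay on the other side of 0 in both siRNA comparisons under the main scaling. Their medians were 0.05 without iron and 0.10 with iron, with 23 and 5 of 77 below 0, where 50 and 60 of 78 members were below 0. Under the alternative processing the cytosolic medians ranged from -0.0011 to 0.07 and from -0.0036 to 0.19, and were below 0 only with normexp background correction followed by quantile normalization or with quantile normalization alone. The members' medians ranged from -0.13 to -0.06 without iron and from -0.14 to -0.03 with iron. With iron in siGFP cells 77 of 79 cytosolic ribosomal protein genes were below 0 (median -0.11), but 57 (median -0.03) with quantile normalization and 52 (median -0.03) with normexp and quantile normalization, where under the main scaling the members were split evenly. Nuclear-coded genes of the respiratory chain and ATP synthase had siTfe3/Tfeb medians of 0.0036 and -0.0045.

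Promoters are shown for members whose bases before the start hold a motif of a factor tied to the comparison or to mitochondrial genes. In a RefSeq table of promoters (GRCm38.p6), 69 of 78 members were found, and Mrpl4, Mrpl13, Mrpl15, Mrpl19, Mrpl38, Mrpl54, Mrps28, Mrps34 and Mrps35 were not. The 250 bases before each start were searched on both strands. The first set holds the E-box core CACGTG, the site read by Tfe3, Tfeb and other factors such as Myc, and is shown because Mrpl20 was the lowest member and Mrpl36 among the lowest with siTfe3/Tfeb. Capitals mark the motif, at 33 to 28 bases before the start in Mrpl20 (chr4:155802628-155802877, plus strand) and at 43 to 38 in Mrpl36 (chr13:73330759-73331008, plus strand).
Mrpl20: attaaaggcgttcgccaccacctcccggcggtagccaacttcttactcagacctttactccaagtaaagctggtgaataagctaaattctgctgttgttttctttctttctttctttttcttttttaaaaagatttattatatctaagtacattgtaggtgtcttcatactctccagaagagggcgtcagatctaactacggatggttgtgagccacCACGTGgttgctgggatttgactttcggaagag
Mrpl36: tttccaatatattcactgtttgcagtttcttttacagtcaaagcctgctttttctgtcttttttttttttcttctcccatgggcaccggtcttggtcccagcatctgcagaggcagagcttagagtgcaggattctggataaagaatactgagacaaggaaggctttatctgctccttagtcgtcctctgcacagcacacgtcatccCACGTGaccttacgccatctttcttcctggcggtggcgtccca

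The E-box core was in 5 of 69 members (7.25%), against 6.86% of 27025 genes, so it was about as frequent in the set as elsewhere. The other carriers were Mrpl2 (siTfe3/Tfeb differences 0.10 and 0.04), Mrpl37 (-0.08 and -0.01) and Mrps18c (-0.18 and -0.14). Their differences were smaller than those of Mrpl20 and Mrpl36, and the medians over the 5 carriers were -0.18 and -0.14, beside -0.12 and -0.14 over members without it.

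The second set holds GCGCATG, the core of the site of Nrf1, a regulator of nuclear genes for mitochondria, and is shown because its carriers lay on both sides of 0. It was in 8 of 69 members (11.6%, against 3.68% of genes). Mrpl9 (0.29 and 0.19), Mrpl32 (0.26 and 0.09), Mrpl39 (0.03 and 0.02) and Mrpl10 (0.0033 and 0.04) were above 0 in both siRNA comparisons. Mrps18b (-0.46 and -0.54), Mrpl17 (-0.47 and -0.38), Mrpl22 (-0.21 and -0.18) and Mrpl33 (-0.11 and -0.06) were below 0 in both, although the other Mrpl22 probe read 0.10 and 0.14. The medians of the 8 were -0.05 without iron and -0.02 with iron, beside -0.15 and -0.14 in the members without the core. In Mrpl9 (chr3:94443086-94443335, plus strand) and Mrpl32 (chr13:14613038-14613241, minus strand, ending at the neighbouring gene Psma2) the core overlaps with its reverse complement to form a palindrome, and Mrpl32 holds further copies, the outermost running past the end shown. Mrpl17 (chr7:105811088-105811337, minus strand) holds it 11 to 5 bases before the start. Capitals mark the Nrf1 core and, in Mrpl17, also the ETS core described next.
Mrpl9: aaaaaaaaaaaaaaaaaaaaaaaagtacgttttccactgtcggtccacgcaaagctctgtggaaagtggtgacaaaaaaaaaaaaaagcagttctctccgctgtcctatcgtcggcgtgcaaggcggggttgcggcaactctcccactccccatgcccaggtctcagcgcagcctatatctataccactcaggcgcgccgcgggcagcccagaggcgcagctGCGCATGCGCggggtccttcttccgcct
Mrpl32: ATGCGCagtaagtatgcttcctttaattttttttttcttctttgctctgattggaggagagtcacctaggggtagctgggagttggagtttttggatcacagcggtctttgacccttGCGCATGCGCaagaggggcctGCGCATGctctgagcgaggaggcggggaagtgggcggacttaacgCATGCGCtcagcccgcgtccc
Mrpl17: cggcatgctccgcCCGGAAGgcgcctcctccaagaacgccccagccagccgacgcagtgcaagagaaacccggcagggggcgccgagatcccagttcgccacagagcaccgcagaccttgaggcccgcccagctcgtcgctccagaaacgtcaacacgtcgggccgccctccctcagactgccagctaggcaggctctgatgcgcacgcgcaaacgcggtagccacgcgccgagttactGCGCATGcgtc

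The core CCGGAAG of ETS factors such as Gabpa was in 18 of 69 members (26.1%), against 7.83% of genes. The siTfe3/Tfeb medians of these 18 were -0.16 and -0.15, beside -0.11 and -0.09 in the other members. A match describes letters in this window and was not tied to binding.

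Some members also shared a layout that was more frequent in the set than among all genes, though most lacked it. A gene on the opposite strand started within 1000 bases before the start of 26 of 69 members (37.7%), against 12.2% of genes. The start of Mrps11 lay 42 bases from that of Mrpl46, another member, on chromosome 7, and both were below 0 with siTfe3/Tfeb (-0.19 and -0.18 for Mrps11, -0.35 and -0.26 for Mrpl46). Mrpl40 started 113 bases from Hira, a histone chaperone gene at -0.33 and -0.32. By contrast Mrpl18 (-0.36 and -0.27) started 238 bases from Tcp1, a chaperonin subunit gene at 0.21 and 0.30. Of 25 members with a measured partner, 15 had the partner's sign without iron and 16 with iron. Mrps11 and Mrpl46 were each counted with the other as partner. The share among neighbouring genes at large was not computed, so no conclusion is drawn from these counts.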

How the data were processed

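RNA of 4 RAW264 cultures was hybridised to 4 single-colour Agilent SurePrint G3 mouse arrays. The deposited scanner files were produced by the authors with Agilent Feature Extraction 12.0.3.1 (per the file headers, and named in the submitters' processing notes), and hold for each spot a background-subtracted, detrended intensity that is not scaled between arrays. A series matrix deposited by the authors gives log2 values centred on each probe's median over the arrays. Regressed on the scanner values over 56602 probes, array differences taken from it gave slope 1 and Pearson r 1, which settles scale and direction. They cannot show centring, for which the largest probe median over the arrays was 5e-07. The median shift between matrix and scanner differences ran from -0.017 (siTfe3/Tfeb without iron) to 0.019 (iron in siTfe3/Tfeb cells). Column medians were -0.0042 for siGFP, 0.022 for its iron array, -0.087 for siTfe3/Tfeb and 0.0013 for its iron array.

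Log2 of the processed signal minus the array's 75th percentile was taken, outlier spots were left out, spots of a probe averaged, and the brightest probe kept per gene. Genes entered a comparison when well above background on all of its arrays. All genes means array gene names that match a RefSeq symbol. Spot SDs come from 300 probes spotted 10 times, in 4 ranges of signal. They rest on 1064 combinations of probe and array for bright, 23 for moderate and 37 for dim probes.

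With 1 array a group, no test was made. A fit without the term for the difference of iron responses would have to take that comparison as its error, and was not run. The members, the lists and the alternatives were chosen with earlier results of these data known. Named were the 4 highest and 4 lowest members of each subunit in each comparison and in the difference of iron responses, members with an opposed probe past 1.2-fold, Mrps18a, Mrps30 and Mrps36, and up to 4 leading genes of other lists. Stalk proteins, Mrps12, E-box, motif-bearing and neighbour genes were named after their values were seen, and longer motifs searched first were replaced by these cores after that. Counting was checked on simulated data. Python 3.11.15, pandas 2.3.3, R 4.3.3 and limma 3.58.1 (normexp with offset 50, quantile normalization) were used. Alternatives were quantile normalization, median centring, normexp with either scaling, the series matrix values, all probes of a gene averaged, no background filter, and subunits by place in the ribosome. Where probes lie within transcripts was not analysed here.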

Additional observations from a re-analysis of the deposited data

Results flagged for a closer look

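Mrpl3, a large subunit protein, was lower with iron in siGFP cells (-0.07) and higher with iron in siTfe3/Tfeb cells (0.13), a difference of iron responses of 0.197, and Mrps15, a small subunit protein, was higher (0.08) and then lower (-0.09), a difference of -0.173. The other Mrps15 probe (spot SD 0.26) was lower with iron in each, at -0.12 and -0.25. Both genes were singled out because the iron differences had opposite signs in the 2 siRNA backgrounds and, on the brightest probe, each exceeded its spot SD of 0.062. The differences between the backgrounds were not tested, and each rests on 4 single arrays.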

How the results depend on the processing

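Under the alternatives, the members' siTfe3/Tfeb medians kept their sign, and the members' iron medians, close to 0, took either sign. Counts of members past 1.2-fold moved by over 1.5 times in some settings, and the cause was not tested. With median centring, members higher with iron in siTfe3/Tfeb cells were 7 instead of 3, members higher with siTfe3/Tfeb with iron 5 instead of 2 and lower 9 instead of 19, and small subunit members below 0 in that comparison were 17 instead of 27. With quantile normalization, and equally with normexp and quantile normalization, members with iron in siTfe3/Tfeb cells were 1 higher and 5 lower (3 and 3), and members higher with siTfe3/Tfeb were 6 without iron (3) and 4 with iron (2). With quantile normalization alone 12 instead of 19 were lower with siTfe3/Tfeb with iron. The counts below 0, added after seeing the data, ranged from 44 to 55 of 78 without iron and from 41 to 62 with iron. With no filter on background the median of all genes for siTfe3/Tfeb without iron was -0.12, so that the members (-0.11) no longer lay below it. No paired analysis was possible because the labels give 1 array a group and no replicate numbers, and no array could be left out for the same reason. Spot SDs cover spotting and scanning only.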
